A study of Mus musculus with 16 samples.

Results

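The levels of 8 noncoding RNA entries were followed in mouse brain: Malat1, Neat1, Meg3, Miat, Rian, Snhg11, Rn7sk and the ribosomal RNA entry CT010467.1. They were taken by symbol from a deposited gene count table, so the members number 8 of 54532 table entries, and all 8 were among the 17736 genes with enough counts to be tested. The choice used measured values: several of these RNAs separate most Ch25h-/- libraries from the rest, so their levels in Ch25h-/- against Ch25h+/+ libraries are given below as a description, with no test.

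The libraries came from brain tissue of female mice at 9 months of age, in 4 groups of 4 libraries: the Ch25h+/+ genotype without tau (Tau-) and with it (Tau+), and the Ch25h-/- genotype likewise. Ch25h encodes cholesterol 25-hydroxylase, which makes 25-hydroxycholesterol and is induced by interferon, and the study asks how it bears on tau pathology. The labels do not give the tau transgene or its promoter, the kind of Ch25h allele, or the strain. Each sample is labelled as frontal cortex while the series' design text names hippocampus. Summed over 5 markers each, frontal cortex genes came to 481 to 608 CPM (a library's counts scaled to a common total) and hippocampal genes to 163 to 302 CPM, and every marker of both lists had counts in every library. Summed choroid plexus markers, which mark the epithelium that makes cerebrospinal fluid, ran from 9.85 to 2530 CPM across libraries.

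Nuclear long noncoding RNAs are transcribed like mRNAs but stay in the nucleus, and brain tissue holds them at high levels. Malat1 sits in nuclear speckles, compartments rich in splicing factors, and Neat1 is the scaffold of paraspeckles, bodies that hold RNA-binding proteins. Meg3 and Rian are maternally expressed from the imprinted Dlk1-Dio3 region, Miat is a nuclear RNA found in neurons, and Snhg11 is a host gene of small nucleolar RNAs that is abundant in neurons. Rn7sk, the 7SK RNA, is a small RNA made by RNA polymerase III that holds the elongation factor P-TEFb inactive with the proteins Hexim1, Larp7 and Mepce. Ribosomal RNA is made by RNA polymerase I and is the bulk of a cell's RNA. The 7SK and ribosomal RNAs carry no poly(A) tail, and the libraries were made with an mRNA kit per the labels' protocols, so the 3′ ends of the transcripts are the sequences to see beside the values.

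The last 30 bases of the transcripts in GENCODE M21 (build GRCm38) are printed 5′ to 3′ on the transcript's strand. Capitals mark the polyadenylation signal hexamers AATAAA or ATTAAA, searched on that strand only. Both the short and the long Neat1 transcripts are shown, and for the other RNAs the longest transcript.
Malat1: ttttatgaAATAAAaactaaatatctctca
Neat1, short: tttacagcaaAATAAAggtttgagattgaa
Neat1, long: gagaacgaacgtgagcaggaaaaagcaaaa
Miat: atttcaatATTAAAaccgacacacactgga
Meg3: gctttcAATAAAtttcttgttttaactaaa
Rian: atacttatatgagtgaaaaAATAAAaaaaa
Snhg11: gaaccacaaAATAAAcactgtcttccttaa
Rn7sk: ggcgctgcatgtggcagtctgcctttcttt
CT010467.1: gcatatgctactggcaggatcaaccaggta
A hexamer was found at the end of 6 of the 8 RNAs, with Neat1 holding it in its short transcript only, and none was found in Rn7sk and CT010467.1. In the same 30 bases a hexamer was present in 60.4% of protein-coding genes, 37.1% of lincRNA genes, 3.07% of miscellaneous RNA genes (the type of Rn7sk) and 1.69% of ribosomal RNA genes.

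Malat1 is known to be processed at an internal site next to an encoded run of adenines, where a small transfer-RNA-like RNA is cut off its end. That run is shown in capitals with the 30 bases on each side, at bases 6644 to 6715 of the 6983-base transcript.
Malat1 adenine run: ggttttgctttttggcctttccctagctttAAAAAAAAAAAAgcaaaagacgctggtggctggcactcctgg
The run holds 12 adenines and is the only run of at least 8 in Malat1. Meg3 had 7 such runs, the longest of 16 bases, Rian 2 with a longest of 15, and Snhg11 3 with a longest of 8. In Neat1, Miat, Rn7sk and CT010467.1 no run reached 8, and the longest were 7, 4, 3 and 4 bases. For CT010467.1 this is the annotated strand, not that of the ribosomal RNA.

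Rn7sk has 331 bases, and its first 120 are printed because Hexim1 is known to bind near its 5′ end.
Rn7sk, 5′ part: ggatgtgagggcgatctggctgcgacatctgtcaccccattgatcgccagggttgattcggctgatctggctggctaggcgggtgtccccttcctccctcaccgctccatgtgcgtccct
The end of CT010467.1 is also shown on the opposite strand, since that strand shows what the entry is.
CT010467.1, last 60 bases, opposite strand: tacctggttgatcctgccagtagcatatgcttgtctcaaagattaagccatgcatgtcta
This is the start of the 18S ribosomal RNA, so the annotated strand of CT010467.1 is the complement of the 18S sequence. The use of strand in counting is not given in the sources used here. Reads of other 18S copies could be counted here or left out, as could those of the many near-identical Rn7sk copies, so the absolute levels of both entries are uncertain.

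In GRCm38, Malat1 (chr19:5795690-5802672, minus strand) and Neat1 (chr19:5824708-5845478, minus strand) are neighbours 22 kb apart, and both are annotated as lincRNA. They lie on the chromosome of Ch25h, 28.7 and 28.6 Mb from it. Meg3 (chr12:109541001-109571726, plus strand, lincRNA) is followed after 32.2 kb by Rian (chr12:109603940-109661716, plus strand, processed transcript). Miat lies at chr5:112213228-112229395 (minus strand, lincRNA) and Snhg11 at chr2:158375638-158386145 (plus strand), where the annotation types it as protein coding. Rn7sk lies at chr9:78175303-78175633 (minus strand) and CT010467.1 at chr17:39846353-39848827 (minus strand). Gm42418 overlaps CT010467.1 on the other strand, and it and AY036118 were listed at 0 in all 16 libraries. The GC content of the longest transcripts ran from 35.8% in Rian and 42.5% in Malat1 to 55.4% in CT010467.1 and 58.0% in Rn7sk.

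Library totals were 15530352 to 25602500 counts. Ch25h had 0 counts in all 8 Ch25h-/- libraries, and Prnp, whose promoter drives some tau transgenes, was at 1414 to 1935 CPM in Tau+ and 708 to 839 CPM in Tau- libraries. One library stands apart from its group: Ch25h-/- Tau+ replicate 1. Its levels lay inside the range of the 8 Ch25h+/+ libraries for 7 of the 8 RNAs (all but Meg3) and for 83.4% of all genes tested. In the other 7 Ch25h-/- libraries the rank correlation of a gene's level with its GC content was -0.399 to -0.263, against 0.0868 to 0.373 in the 8 Ch25h+/+ libraries and 0.161 in that 1 library. Entries typed as ribosomal RNA took 0.229% to 0.569% of counts in those 7, 0.0115% to 0.0477% in Ch25h+/+ and 0.0157% in the library apart. Nearly all of that share was CT010467.1 itself, at 0.2289% to 0.5684% in those 7 and 0.01535% in the library apart. The ribosomal share therefore restates the level of a chosen RNA. Mitochondrial genes took 3.78% to 4.57%, 2.79% to 3.68% and 3.09% in the same order. The part of these library traits in the differences below was not tested. Fewer cells of a type and less RNA per cell cannot be told apart in bulk tissue. The test p-values weigh a difference between groups against the spread between libraries within groups.

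Per kilobase of exon, the mean level in Ch25h+/+ Tau- was 256 CPM per kb for Snhg11, 212 for Meg3, 83.7 for CT010467.1, 61.3 for Miat, 33.6 for Malat1, 32.4 for Rian, 5.36 for Neat1 and 1.96 for Rn7sk. In Ch25h-/- Tau- the entry CT010467.1 had the highest level per length, at 1770 CPM per kb, and Malat1 was at 105. The remaining levels are in CPM on TMM-scaled library sizes, as mean ± SD with n = 4.

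**Figure D1:**
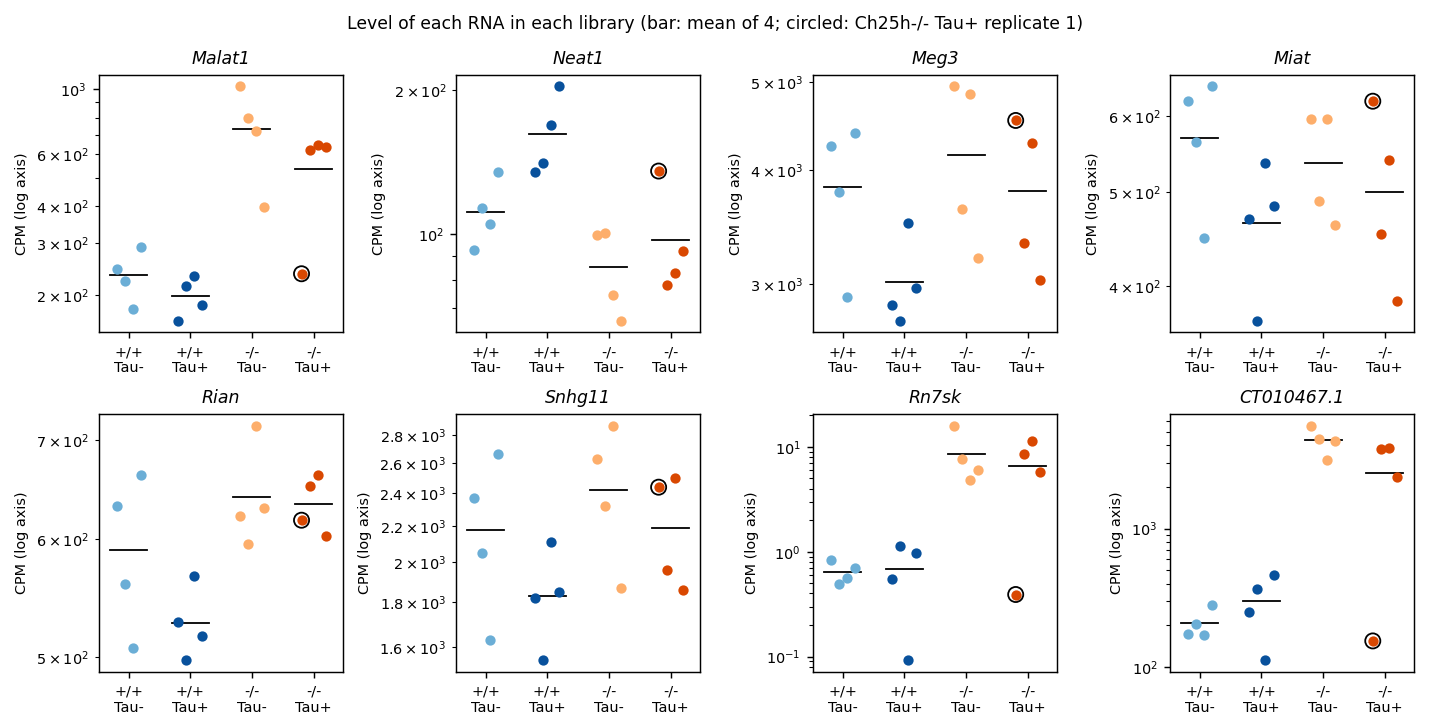
Level of each RNA in each library, in CPM on a log axis, by genotype and tau status. Each point is a library, the bar is the mean of 4 libraries, and Ch25h-/- Tau+ replicate 1 is circled; it lies with the Ch25h+/+ libraries for Malat1 (236.7 CPM), Rn7sk (0.391) and CT010467.1 (154).

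Malat1, the speckle RNA, was higher in 7 of the 8 Ch25h-/- libraries than in any Ch25h+/+ library. It measured 244.8, 223.1, 180.5 and 290.6 CPM in Ch25h+/+ Tau- (234.7 ± 45.9) and 164.2, 215.0, 232.6 and 186.1 CPM in Ch25h+/+ Tau+ (199.5 ± 30.3). In Ch25h-/- Tau- it measured 1021, 794.1, 721.2 and 398.9 CPM (733.7 ± 257). Replicates 1 to 4 of Ch25h-/- Tau+ were at 236.7, 622.3, 645.4 and 637.9 CPM (535.6 ± 199.5). Every Ch25h-/- library but Tau+ replicate 1 lay above all 8 Ch25h+/+ libraries, and without that replicate the Ch25h-/- Tau+ mean was 635.2 ± 11.8 CPM (n = 3). The log2 fold change for Ch25h loss was 1.64 ± 0.28 (SE) in Tau- and 1.42 ± 0.28 in Tau+, or 1.66 in Tau+ without replicate 1.

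CT010467.1 is the ribosomal entry. In Ch25h+/+ it was at 171.7, 203.6, 169.2 and 281.6 CPM in Tau- (206.5 ± 52.4) and at 250.0, 366.2, 111.9 and 464.2 CPM in Tau+ (298.1 ± 151.9). In Ch25h-/- Tau- it was at 5573, 4475, 3120 and 4323 CPM (4373 ± 1004), so the Tau- groups did not overlap. In Ch25h-/- Tau+ replicate 1 was at 153.7 CPM and the other 3 libraries at 3762, 3833 and 2352 CPM (2525 ± 1722 over all 4, 3316 ± 835 over the 3). The log2 fold change for Ch25h loss was 4.40 ± 0.65 in Tau- and 3.08 ± 0.61 in Tau+, or 3.46 in Tau+ without replicate 1. Its neighbour Gm26917, a lincRNA entry on the other strand, ranged from 12.7 to 52.8 CPM in Ch25h+/+ and 14.7 to 35.9 CPM in Ch25h-/- libraries, which overlap.

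Rn7sk had few reads. In Ch25h+/+ the libraries held 18, 9, 13 and 14 counts without tau and 9, 27, 2 and 21 with it. In Ch25h-/- they held 265, 131, 80 and 107 counts without tau and 10, 132, 202 and 92 with it. Counting error alone puts the lowest of these, 2 counts, between 0.242 and 7.22 (exact Poisson 95% interval), and the highest, 265 counts, between 234 and 299. In CPM the group means were 0.648 ± 0.152, 0.691 ± 0.468, 8.61 ± 5.04 and 6.55 ± 4.73 in the same order, and 8.60 ± 2.87 (n = 3) in Ch25h-/- Tau+ without replicate 1. The Tau- groups did not overlap. In Tau+, replicate 1 of Ch25h-/- lay among the Ch25h+/+ libraries and the other 3 lay above them. The log2 fold change for Ch25h loss was 3.71 ± 0.70 in Tau- and 3.19 ± 0.70 in Tau+, or 3.59 in Tau+ without replicate 1. The other RNA polymerase III entries of the same list did not reach the count filter: Rn7s2 had 11 counts over all 16 libraries, Vaultrc5 4, Rny1 3, Bc1 2, Rpph1 and Rny3 1 each, and Rn7s1, Rn7s6 and Rmrp 0.

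Neat1, the paraspeckle RNA, went the other way from its neighbour Malat1. It measured 92.59, 113.4, 104.9 and 134.8 CPM in Ch25h+/+ Tau- (111.4 ± 17.8) and 134.5, 140.8, 169.2 and 203.7 CPM in Ch25h+/+ Tau+ (162.1 ± 31.6). In Ch25h-/- it measured 99.39, 100.7, 74.55 and 65.87 CPM in Tau- (85.13 ± 17.6) and 135.4, 78.10, 82.79 and 92.05 CPM in Tau+ (97.09 ± 26.2). Replicate 1 of Ch25h-/- Tau+ was again nearest the Ch25h+/+ libraries, and without it the group mean was 84.3 ± 7.10 CPM (n = 3), below all 4 Ch25h+/+ Tau+ libraries. The log2 fold change for Ch25h loss was -0.74 ± 0.18 in Tau+ (-0.96 without replicate 1) and -0.39 ± 0.18 in Tau-, where the groups overlapped. Marker sums of other cells also differed in the Tau+ comparison. In CPM on total counts, 5 astrocyte markers came to 2010 to 3260 in Ch25h+/+ and 1560 to 1750 in Ch25h-/-, and 5 microglial markers to 324 to 422 and 252 to 301, with no overlap and with counts of every marker in every library. Their part in the Neat1 values was not tested.

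The imprinted RNAs Meg3 and Rian differed less. In Ch25h+/+ mice Meg3 measured 4256, 3786, 2905 and 4401 CPM without tau (3837 ± 674) and 2844, 2736, 3501 and 2973 CPM with it (3013 ± 339). In Ch25h-/- mice it measured 4949, 3631, 4856 and 3209 CPM without tau (4161 ± 874) and 4539, 3327, 4290 and 3032 CPM with it (3797 ± 730). All 4 groups overlapped their neighbours in the order of means. Rian was the least variable of the 8, with Ch25h+/+ means of 590.4 ± 70.3 CPM in Tau- (632.0, 559.7, 507.2 and 662.6) and 527.4 ± 29.1 CPM in Tau+ (528.1, 497.9, 566.7 and 516.8). The Ch25h-/- means were 640.7 ± 52.1 CPM in Tau- (621.7, 595.5, 715.6 and 630.1) and 634.1 ± 27.9 CPM in Tau+ (618.1, 651.6, 663.1 and 603.6). Its Tau+ groups did not overlap, with 603.6 CPM as the lowest Ch25h-/- value and 566.7 CPM as the highest Ch25h+/+ value. The log2 fold change of Rian for Ch25h loss was 0.27 ± 0.09 in Tau+ and 0.12 ± 0.09 in Tau-.

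Miat and Snhg11 overlapped in both comparisons of Ch25h genotype. Miat ran from 368.1 to 644.3 CPM over the Ch25h+/+ libraries and from 385.8 to 621.7 CPM over the Ch25h-/- libraries. Its means were 569.7 ± 87.7 and 464.5 ± 70.5 CPM in Ch25h+/+ Tau- and Tau+, and 536.3 ± 70.2 and 500.1 ± 102.9 CPM in Ch25h-/- Tau- and Tau+. Snhg11 ran from 1545 to 2666 CPM and from 1860 to 2872 CPM over the same sets, with means of 2180 ± 445, 1831 ± 231, 2423 ± 433 and 2191 ± 326 CPM in the order given for Miat. Log2 fold changes for Ch25h loss were 0.11 in Tau+ (-0.03 without Ch25h-/- replicate 1) and -0.09 in Tau- for Miat, and 0.26 and 0.15 for Snhg11.

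Counted over the 8 RNAs, 2 did not overlap between Ch25h genotypes in Tau+ (Malat1 and Rian, both higher in Ch25h-/-), where 10.2% of all genes tested did not overlap and 4.50% were higher without overlap. In Tau- 3 did not overlap (Malat1, Rn7sk and CT010467.1, all higher in Ch25h-/-), against 16.2% of all genes, or 7.64% that were higher. Since the RNAs were chosen on this contrast, nothing is read from these counts. The Tau+ count became 5 when replicate 1 of Ch25h-/- Tau+ was left out, and 4 when replicate 3 of Ch25h+/+ Tau+ was. Setting the 7 other Ch25h-/- libraries beside the 8 Ch25h+/+ libraries, Malat1, Rn7sk and CT010467.1 were higher in every one, with ratios of medians of 2.95, 12.2 and 16.9. The same complete separation was seen for 985 of all genes tested (5.55%), of which 437 were higher and 548 lower.

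**Figure D2:**
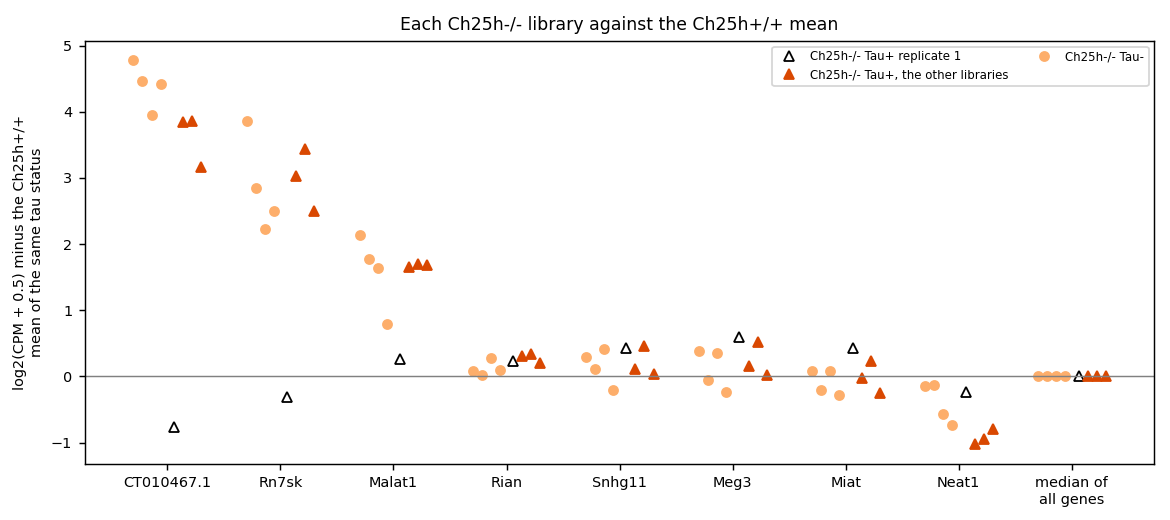
Difference of each Ch25h-/- library from the Ch25h+/+ mean of the same tau status, on the log2(CPM + 0.5) scale, for the 8 RNAs and for the median of all genes tested. Filled symbols sit between 0.79 and 4.78 for Malat1, Rn7sk and CT010467.1, while the open triangle, Ch25h-/- Tau+ replicate 1, sits at 0.26, -0.32 and -0.77.

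The tau comparisons were tested, since the choice of these RNAs did not use them directly. That choice did look at single libraries, among them Ch25h-/- Tau+ replicate 1. The tau values in Ch25h-/- and the interaction are therefore not fully independent of it. In Ch25h+/+ mice none of the 8 passed an adjusted p of 0.05 in the edgeR quasi-likelihood test with Benjamini-Hochberg adjustment over all genes, where 1.56% of all genes passed. DESeq2 and limma-voom also gave 0 of 8, and 2 of the 8 (Neat1 and Meg3) had an unadjusted edgeR p under 0.05, as did 9.38% of all genes tested. Neat1 was at 162.1 CPM in Tau+ against 111.4 CPM in Tau-, a tau log2 fold change of 0.54 ± 0.18 (edgeR adjusted p = 0.206), and the groups overlapped only by the highest Tau- library (134.8 CPM) and the lowest Tau+ library (134.5 CPM). The adjusted p of Neat1 was 0.0209 when genes with as little as 1 count were kept in the test, and the cause of that change was not tested. Meg3 had a tau log2 fold change of -0.35 ± 0.16 (edgeR adjusted p = 0.502). Markers of other cells differed between the same libraries: in CPM on total counts, 5 astrocyte markers summed to 1500 to 1610 without tau and 2010 to 3260 with it. The 5 microglial markers came to 247 to 267 and 324 to 422, and the 4 endothelial markers to 135 to 164 and 166 to 196, none of them overlapping, while the neuronal sums, 6330 to 6670 and 6270 to 6640, did overlap. Every marker of these lists had counts in every library. Their part in the tau values of Neat1 and of the genes below was not tested. No member's Tau+ and Tau- libraries were fully apart in either genotype, where 5.86% of all genes in Ch25h+/+ and 2.14% in Ch25h-/- were.

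Of the remaining RNAs in Ch25h+/+, the tau log2 fold changes were -0.23 ± 0.27 for Malat1, -0.16 ± 0.09 for Rian and -0.25 ± 0.15 for Snhg11. Rn7sk was at 0.11 ± 0.82 and CT010467.1 at 0.53 ± 0.57, the widest standard errors of the 8. Their edgeR adjusted p-values ran from 0.606 for Rian to 0.995 for Rn7sk. Miat had -0.29 ± 0.15 (edgeR adjusted p = 0.573).

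In Ch25h-/- mice none of the 8 passed for tau (edgeR adjusted p = 1 for each, with 0.0395% of all genes passing), none had an unadjusted edgeR p under 0.05, and DESeq2 and limma-voom also passed 0 after adjustment. Unadjusted, limma-voom had 1 of the 8 under 0.05 (CT010467.1) and DESeq2 0. Their log2 fold changes ran from -0.79 ± 0.56 for CT010467.1 to 0.19 ± 0.18 for Neat1, with -0.41 ± 0.58 for Rn7sk. In the edgeR fit without Ch25h-/- Tau+ replicate 1, the tau values were -0.41 for CT010467.1, -0.02 for Neat1 and -0.01 for Rn7sk, and that of Malat1 was -0.21 against -0.45 with it. By limma-voom on all libraries the tau log2 values were -1.51 for CT010467.1 and -1.28 for Rn7sk. The interaction, which asks whether the tau difference depends on Ch25h, also passed for none of the 8 (edgeR adjusted p = 1 for each, against 0.0338% of all genes). At an unadjusted p under 0.05 the count was 0 by edgeR, DESeq2 and limma-voom, and the adjusted counts of the latter tools were 0 too. The largest interaction log2 value was -1.32 ± 0.80, for CT010467.1, and it was -0.94 without that replicate.

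**Figure D3:**
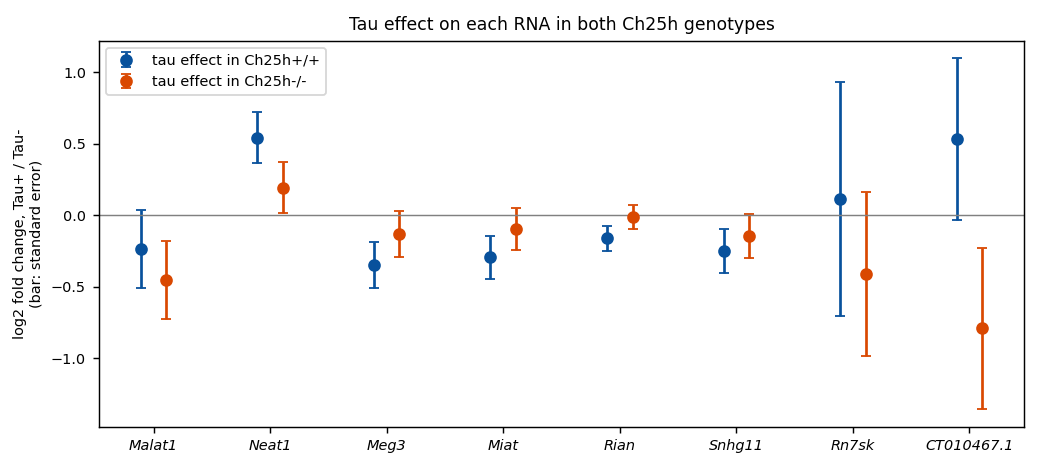
Log2 fold change Tau+ over Tau- of each RNA in Ch25h+/+ (blue) and Ch25h-/- (orange) mice, with bars of 1 standard error. The bars of Rn7sk and CT010467.1 are the longest, and Neat1 in Ch25h+/+ stands at 0.54.

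Within the 8 Ch25h+/+ libraries, which the split by genotype does not touch, the RNAs varied together to different degrees. These are Pearson correlations of log2(CPM + 0.5) over 8 libraries that share 1 normalization, given as a description. Meg3, Miat, Rian and Snhg11 followed each other, with r from 0.918 (Miat and Rian) to 0.976 (Rian and Snhg11). Malat1 had 0.849 with Meg3, 0.828 with Rian, 0.779 with Snhg11 and 0.655 with Miat. Within the 7 Ch25h-/- libraries other than Tau+ replicate 1, Meg3, Miat and Snhg11 had 0.928 to 0.965 with each other, while Rian had 0.537 with Meg3, 0.555 with Miat and 0.540 with Snhg11. Rn7sk and CT010467.1, the RNAs without a poly(A) tail, had r = 0.819 with each other, and with Malat1 they had -0.06 and -0.18. Neat1 had -0.36 to 0.43 with the other RNAs, and -0.16 with its neighbour Malat1. That pair had 0.817 within the 7 Ch25h-/- libraries other than Tau+ replicate 1 and -0.653 over all 16. Over all 16 libraries Malat1 had 0.922 with Rn7sk and 0.904 with CT010467.1, beside 0.553 and 0.278 within the 7 Ch25h-/- libraries other than Tau+ replicate 1.

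**Figure D4:**
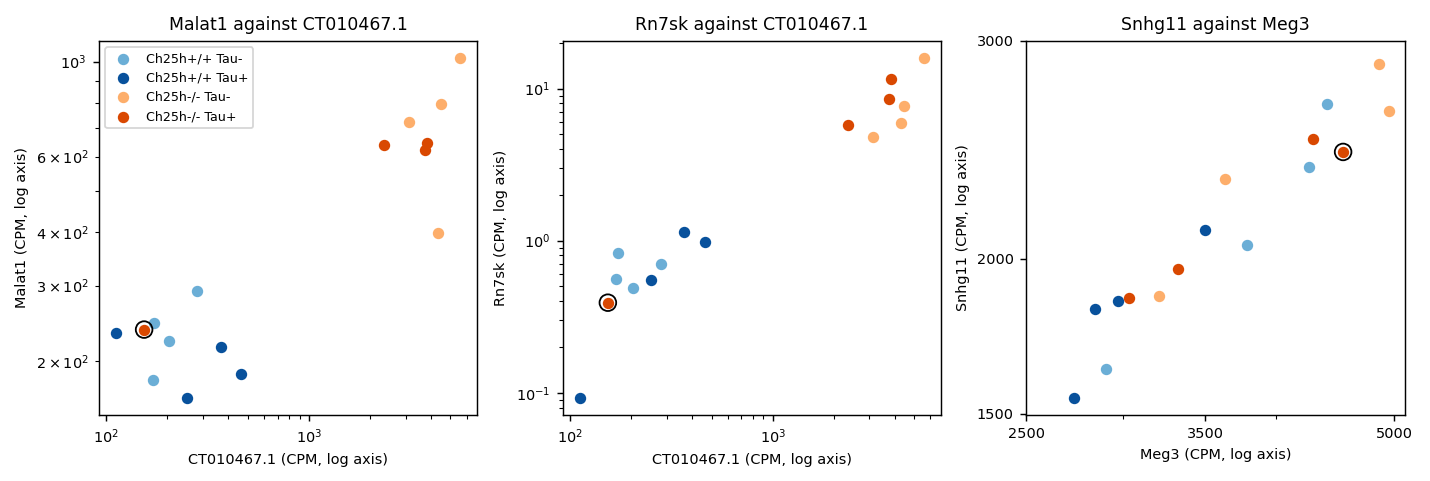
Levels of pairs of RNAs in the 16 libraries, in CPM on log axes, coloured by group, with Ch25h-/- Tau+ replicate 1 circled. Malat1 and Rn7sk against CT010467.1 form a lower cluster that holds the 8 Ch25h+/+ libraries and the circled library, while Snhg11 follows Meg3 across all groups (r = 0.957 over 16 libraries).

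The genes most like each RNA were taken as the 3 with the highest Pearson r over 16 libraries. They came from 13952 genes for which the log2 of the mean CPM was 1 or more. The choice depends on the measure: ranked by Spearman's rho, 2 of the 3 genes stayed for Miat and CT010467.1, 1 for Malat1 and Neat1, and 0 for Meg3, Rian, Snhg11 and Rn7sk. For Malat1 the first was Sf3b1, a splicing factor subunit, with r = 0.951 over 16 and 0.957 within the 8 Ch25h+/+ libraries. Next came Zfp846 (0.939 and 0.631) and 9530059O14Rik, a lincRNA, with 0.931 over 16 libraries and 0.0467 within Ch25h+/+. For Neat1 the 3 were Tln1, which encodes the adhesion protein talin (0.924 and 0.943), Mvp, the major vault protein (0.916 and 0.841), and Rrbp1 (0.908 and 0.877). Miat was most like Kcnt1, a sodium-activated potassium channel (0.948 and 0.994), Grin1os (0.930 and 0.983) and Ssh3 (0.918 and 0.912).

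Meg3 was most like D030047H15Rik (0.938 over 16 libraries and 0.940 within Ch25h+/+), Gm42979 (0.938 and 0.963) and the myosin gene Myo9b (0.934 and 0.933). Rian was most like Plekha5 (0.922 and 0.960), Rufy2 (0.908 and 0.839) and A230057D06Rik (0.897 and 0.901). Snhg11 was most like Srrm1, which encodes a speckle protein (0.937 and 0.947), Akap8 (0.931 and 0.929) and C2cd5 (0.929 and 0.900). For these RNAs the likeness within Ch25h+/+ was close to that over all libraries. For Rn7sk it was not: 9530059O14Rik had 0.953 and 0.246, Gm24270, annotated as a miRNA, 0.931 and 0.591, and Bmi1 0.925 and 0.439. CT010467.1 was most like 9530059O14Rik (0.972 and 0.654), Gm24270 (0.964 and 0.751) and the pseudogene Gm6807 (0.943 and -0.261). The lincRNA 9530059O14Rik, first for both, was at 0.475 to 1.12 CPM in Ch25h+/+ and at 0.704 CPM in Ch25h-/- Tau+ replicate 1, and its median in the other 7 Ch25h-/- libraries was 7.75 CPM.

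Genes that work with these RNAs were read from lists written with earlier results of these data known. By the edgeR test, 0 of 12 speckle proteins, 0 of 10 paraspeckle proteins and 0 of 7 proteins of the 7SK particle and P-TEFb passed for tau in either Ch25h genotype. At an unadjusted edgeR p under 0.05, the counts in Ch25h+/+ were 1 (Srsf3), 3 (Cpsf6, Sfpq and Tardbp) and 2 (Ccnt2 and Larp7), where 9.38% of all genes tested had such a p. In Ch25h-/- they were 1 (Srsf2), 0 and 0, where 3.68% of all genes did. DESeq2 called 1 of these genes, Sfpq, which encodes a core paraspeckle protein that binds Neat1, in Ch25h+/+, and limma-voom called 0. The edgeR test also passed 0 of 15 snoRNA host genes other than Snhg11 and 0 of 16 nuclear long noncoding RNAs other than the 8. At an unadjusted p under 0.05 these gave 0 and 3 in Ch25h+/+ and 0 and 0 in Ch25h-/-, and DESeq2 and limma-voom called 0 in each. For Ch25h loss the medians of these lists stood near the 0.00 of all genes for speckle proteins (log2 0.09 in Tau+ and 0.04 in Tau-) and paraspeckle proteins (0.10 and 0.06). The 7SK list was at -0.20 and -0.17, and the snoRNA hosts at -0.17 and -0.08. The nuclear long noncoding RNAs had medians of 0.25 and 0.31, beside 0.13 and 0.14 over all 1680 long noncoding genes tested. These lists held 12, 10, 7, 15 and 16 tested genes. Over them 4 genes were fully apart between Ch25h+/+ and the 7 Ch25h-/- libraries other than Tau+ replicate 1. Of these, 2 were higher and 2 lower in the 7, beside 5.55% of all genes apart in either direction. Tug1, Mepce and U2af2 were named after their values were seen, and nothing is read from the count. The nuclear RNA Tug1 was at 102 to 113 CPM in the 7 and 79.0 to 98.3 CPM in Ch25h+/+, and Sf3b1 at 275 to 313 and 233 to 270 CPM. The 7SK capping enzyme gene Mepce was at 40.7 to 48.6 CPM in the 7 and 50.8 to 63.0 CPM in Ch25h+/+, and the splicing factor gene U2af2 at 102 to 115 and 120 to 156 CPM. Replicate 1 was at 89.8, 262, 50.8 and 143 CPM for these genes, within the Ch25h+/+ range, at its lower edge for Mepce.

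The most abundant members of those lists differed in both directions. The speckle scaffold genes Srrm2 and Son had log2 fold changes for Ch25h loss of 0.30 and 0.30 in Tau+ and 0.19 and 0.26 in Tau-. The 7SK-binding inhibitor Hexim1 had -0.22 and -0.17, and the kinase of P-TEFb, Cdk9, -0.20 and -0.23, while the P-TEFb cyclin Ccnt2 had 0.31 and 0.24. The speckle splicing factor Srsf5 had -0.02 and -0.06, and of the paraspeckle genes Matr3 had 0.15 and 0.14 and Hnrnpk 0.01 and 0.01. The snoRNA hosts Snhg14 and Gas5 had 0.45 and 0.13 in Tau+ and 0.33 and -0.13 in Tau-. Xist, the RNA that coats the inactive X chromosome, had 0.47 in Tau+ and 0.74 in Tau-, and 2900097C17Rik -0.06 and -0.07. Mirg, the imprinted neighbour of Rian, had -0.01 and -0.28, where Meg3 had 0.33 and 0.12.

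RNAs outside the usual mRNA pool were also read. Mitochondrial ribosomal RNA mt-Rnr1 was at 1270 to 1950 CPM in Ch25h+/+, at 2070 to 2720 CPM in the 7 Ch25h-/- libraries and at 1550 CPM in Ch25h-/- Tau+ replicate 1. The larger and more abundant mt-Rnr2 overlapped, at 1650 to 2590 CPM in Ch25h+/+, 2540 to 3290 CPM in the 7 and 1940 CPM in replicate 1. Of 14 mitochondrial transfer RNAs tested, 4 (mt-Tc, mt-Th, mt-Tp and mt-Tr) were fully apart between the 7 and Ch25h+/+, all higher in the 7, where 5.55% of all genes tested were apart in either direction. These 4 were named after their values were seen. Mt-Tp, the transfer RNA for proline, was at 27.2 to 51.1 CPM in Ch25h+/+, 56.8 to 73.0 CPM in the 7 and 28.8 CPM in the library apart. The replication-dependent histone mRNAs, which typically end in a stem loop and not in a poly(A) tail, were listed by symbol. They had medians for Ch25h loss of -0.20 in Tau+ and -0.02 in Tau- over 15 genes, with values in both directions. Whether the histone transcripts counted here carried a tail was not tested. The 8 small nucleolar RNAs found by symbol and tested had medians of -0.08 in Tau+ and -0.11 in Tau-. All 24 tested genes typed as small nucleolar RNA had medians of 0.02 and 0.11.

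**Figure D5:**
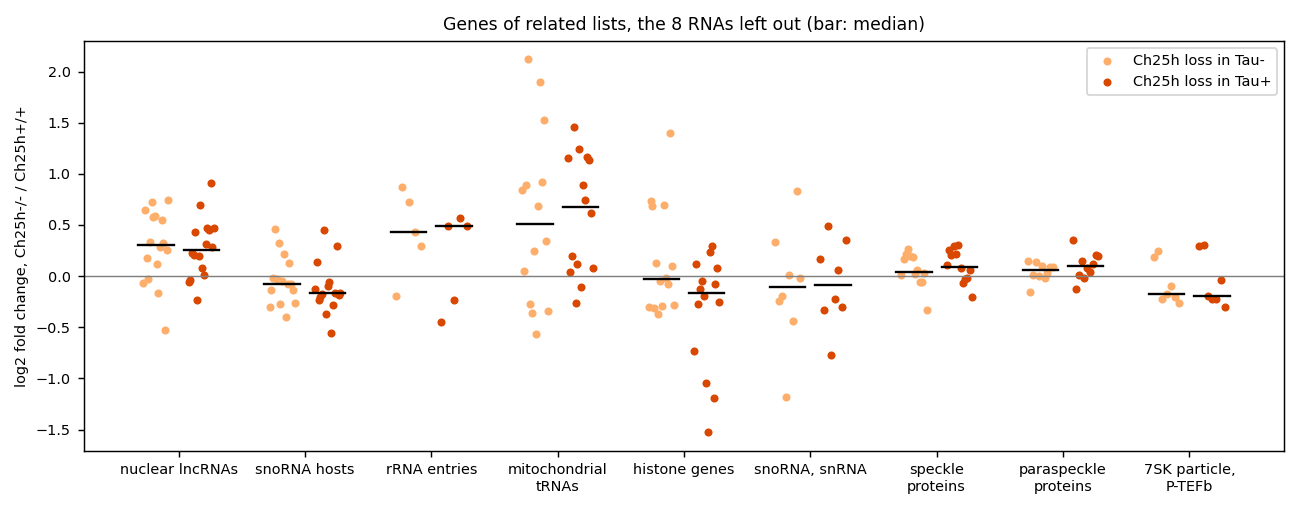
Log2 fold change Ch25h-/- over Ch25h+/+ of the genes of each related list in Tau- (light) and Tau+ (dark), with the 8 RNAs and Hist1h2al left out and a bar at the median. The mitochondrial transfer RNAs reach the highest values, and the medians of the speckle and paraspeckle protein lists lie within 0.10 of 0.

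Among all these lists, 2 genes passed for tau by the edgeR test, both of them among the 15 histone genes in Ch25h+/+ mice, where 1.56% of all genes passed, and limma-voom called the same 2 histone genes. Hist1h4i rose from 1.06 ± 0.161 CPM in Tau- to 2.46 ± 0.394 CPM in Tau+ (log2 fold change 1.21 ± 0.23, edgeR adjusted p = 0.00646). Hist1h2al had 0 counts in all 4 Ch25h+/+ Tau- libraries and 0.558 to 4.16 CPM in Ch25h+/+ Tau+ (edgeR adjusted p = 0.0251). The 15 histone genes tested, of 70 in the table, had a median tau log2 fold change of 0.46 in Ch25h+/+, the comparison in which the astrocyte, microglial and endothelial sums were also higher in Tau+, beside -0.01 over all genes, and -0.03 in Ch25h-/-. In Ch25h-/- 0 of 15 passed the edgeR test, beside 0.0395% of all genes, and DESeq2 and limma-voom also called 0. At an unadjusted edgeR p under 0.05 there were 7 of 15 in Ch25h+/+ (9.38% of all genes) and 1 of 15 in Ch25h-/- (Hist1h2bc, 3.68% of all genes). The test of the difference between the genotypes, the interaction, passed 0 of 15 by edgeR, DESeq2 and limma-voom, with 4 of 15 under an unadjusted edgeR p of 0.05 (4.13% of all genes) and edgeR adjusted p-values of 0.366 for Hist1h4i and 0.281 for Hist1h2al. DESeq2 called 3 in Ch25h+/+, Hist1h4i, Hist1h2al and Hist1h1c. Rn7sk and CT010467.1, the RNAs without a tail among the 8, had tau log2 fold changes of 0.11 and 0.53 in the same mice, and neither passed.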

How the data were processed

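Brain RNA of 16 female mice was sequenced, with libraries from a SMARTer mRNA kit per the labels' protocols. The deposited table gives 1 whole-number read count per gene and library with no normalization by the authors. STAR 2.7 and GRCm38 (mm10) come from the submitters' processing notes; the counting program, its annotation and the use of strand are not given in the sources used here. Totals were 15530352 to 25602500 counts, which leaves Rn7sk with 2 to 265 counts a library; intervals cover counting error only. Of the table's symbols, 105 were repeated and 27 had become dates. All pairs of replicates in a group (24) differed by more than sampling noise.

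Genes passing filterByExpr (17736) were fitted in 1 model of 16 libraries, a mean per group, with edgeR 4.0.16 (TMM, two-sided quasi-likelihood F test) in R 4.3.3. P-values were adjusted over all genes by Benjamini-Hochberg at a threshold of 0.05. CPM used TMM-scaled sizes, and log values a pseudocount of 0.5. Positions, types and sequences came by symbol from GENCODE M21 (GRCm38), which matched 98.7% of symbols. The script was tested on simulated data. Alternatives were relative log expression size factors, looser and stricter count filters, DESeq2 1.42.0, limma-voom (limma 3.58.1), fits of only the 8 libraries compared, other library sizes, Spearman's rho and leaving out each library. Replicates were numbered in accession order, which pairs nothing.

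The members and lists were chosen with earlier results of these data known. By rule, all members are named, with the 3 most abundant genes of a list and any of its genes past the threshold for tau, and the 3 genes most like each member; some list genes are left as counts, and Gm26917, Tug1, Mepce, U2af2, the mitochondrial transfer RNAs standing apart in 7 libraries and list genes named for an unadjusted p were named after their values were seen.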

Additional observations from a re-analysis of the deposited data

Results flagged for a closer look

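Malat1 in Ch25h-/- Tau+ replicate 1, at 236.7 CPM, lay far from the other 3 libraries of its group, which were at 622.3 to 645.4 CPM. Its gap to the nearest of them was 0.943 of the group's whole range, above the Dixon 95% critical value for 4 samples. It was the only value set apart by this measure among 32 sets of 4 libraries (8 RNAs in 4 groups), and chance sets apart about 1 in 20 such sets, so 1 in 32 is no more than chance gives. Malat1 was also chosen with these values known, so the gap is a description and supports nothing. The same library had the lowest values of its group for Rn7sk and CT010467.1 and the highest for Neat1, without passing the critical value for those RNAs.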

How the results depend on the processing

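The count of the 8 RNAs that passed for tau in Ch25h+/+ was 0, and it became 1 (Neat1) with no filter beyond 1 count; it was 0 under all the other alternatives run, leaving out each library included, as it was for tau in Ch25h-/- and for the interaction under all of them. RNAs that did not overlap between Ch25h genotypes in Tau+ numbered from 2 to 5 when 1 library was left out, against 2 in full, and in Tau- from 3 to 4, against 3. Signs changed among tau and interaction values that had not passed and, for Ch25h loss, in Miat in Tau+, at -0.0309 to 0.201 with 1 library left out. The tau value of Rn7sk in Ch25h+/+ was -0.31 with limma-voom, against 0.11. Leaving out 1 library at a time, the tau value in Ch25h+/+ ran from -0.247 to 0.483 for Rn7sk, and in Ch25h-/- from -0.857 to 0.0625 for Rn7sk, from -0.0532 to 0.0371 for Rian, from -0.0212 to 0.28 for Neat1 and from -0.229 to 0.0032 for Miat. The interaction ran from -0.00933 to 0.212 for Snhg11 and from -0.435 to 0.0143 for Malat1. The cause was not tested. On total counts with a pseudocount, the Rn7sk value for Ch25h loss in Tau+ was 2.15, against 3.19 in the fit, and in Tau- 2.87, against 3.71. Of the 3 genes most like each RNA, 0 to 2 stayed under Spearman's rho, and without Ch25h-/- Tau+ replicate 1 it was 1 for Neat1, Meg3 and Miat and 2 or 3 for the others. No paired analysis was possible because the numbers were given in accession order and tie no libraries together. Counting error limits Rn7sk, at 2 to 27 counts in Ch25h+/+ libraries.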
